A study of Rattus norvegicus with 6 samples.

Results

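Signal transducers and activators of transcription (STATs) and the Janus kinases that activate them were followed in rat atrial fibroblasts after transfection with an siRNA against GPD1L. The set held 9 genes, the STAT genes Stat2, Stat3, Stat4, Stat5a, Stat5b and Stat6 and the kinase genes Jak1, Jak2 and Tyk2, taken by symbol from the 40154 genes of the count table without use of their values. Of these 9, 8 had enough reads to be tested, among 14852 genes tested in all, and Stat4 did not. The cells came from Sprague-Dawley pups 1 to 3 days old and were obtained by preplating, which lets nonmyocytes attach before myocytes, and all 6 samples also carry the treatment label "Atrial differentiation". In 3 samples the fibroblasts received a negative control siRNA (si-NC), and in the other 3 an siRNA directed at GPD1L (si-GPD1L), 24 h before poly(A) RNA was sequenced. The labels do not say whether the samples of a group were separate cultures, so p-values measure only the spread between these samples, which may be technical.

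A cytokine or interferon brings together receptor chains that carry Janus kinases, the kinases phosphorylate a STAT, and the STAT pair moves to the nucleus and binds DNA. Type I interferon signals through Jak1 and Tyk2 to a complex named ISGF3, in which Stat2 and Irf9 are subunits and which binds the interferon-stimulated response element (ISRE). Stat3 follows gp130 cytokines such as interleukin-6, Stat4 follows interleukin-12, Stat5a and Stat5b follow growth hormone and prolactin, and Stat6 follows interleukin-4 and interleukin-13. In the heart, Stat3 and the gp130 receptors are known mainly for responses of myocytes and fibroblasts to injury.

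Library totals ranged from 16892255 to 20149732 reads counted to genes. The targeted gene Gpd1l, an enzyme of glycerol phosphate metabolism, had 262, 332 and 313 normalized counts under si-NC, against 220.2, 208 and 302 in the libraries that carry the si-GPD1L label. A normalized count is a count scaled by the library size and its TMM factor to the mean library. The si-GPD1L replicate 3 lay inside the si-NC range, and the difference did not pass the test (log2 fold change −0.31 ± 0.15 SE, edgeR adjusted p = 0.234, exact two-sided permutation p = 0.2, where the smallest possible is 0.1). The groups below are therefore those named by the labels. Jak and Stat genes are expressed in many cell types, and in bulk RNA fewer cells of a type and less RNA per cell cannot be told apart.

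Stat2, the STAT subunit that brings the transactivation domain to ISGF3, was the member that rose. It had 974, 979.8 and 936 normalized counts under si-NC, compared with 4034, 4748 and 4351 after si-GPD1L. All 3 si-GPD1L libraries lay above all 3 si-NC libraries, and the lowest of them was more than 4-fold the highest control. The means were 963 ± 23.8 and 4377 ± 358 normalized counts (SD, n = 3 each), a log2 fold change of 2.18 ± 0.079 (SE), or 4.55-fold with a 95% interval of 4.04 to 5.12 (edgeR adjusted p = 8.77e-10). Per gene length, Stat2 went from 29.8 ± 1.22 to 143.7 ± 12.5 TPM (SD, n = 3 each). Ordered by log2 fold change, Stat2 stood at place 99 of the 14852 genes tested.

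One of the 8 tested members was called at an adjusted p under 0.05, against 6.36% of all genes tested (4.03% higher and 2.33% lower), and the same gene also passed the added limit of an absolute log2 fold change over 1, which 1.62% of genes passed (1.48% in the higher direction). Stat2 was also the 1 member with an unadjusted p under 0.05. The groups did not overlap in 3 of the 8, Stat2, Stat5b and Tyk2, against 29.0% of all genes. The counts of 1 in 8 called and 3 in 8 not overlapping are near the shares of all genes. They are not a result about the members as a set. The median log2 fold change was 0.076 over the 8 members and −0.0049 over all genes tested.

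**Figure D1:**
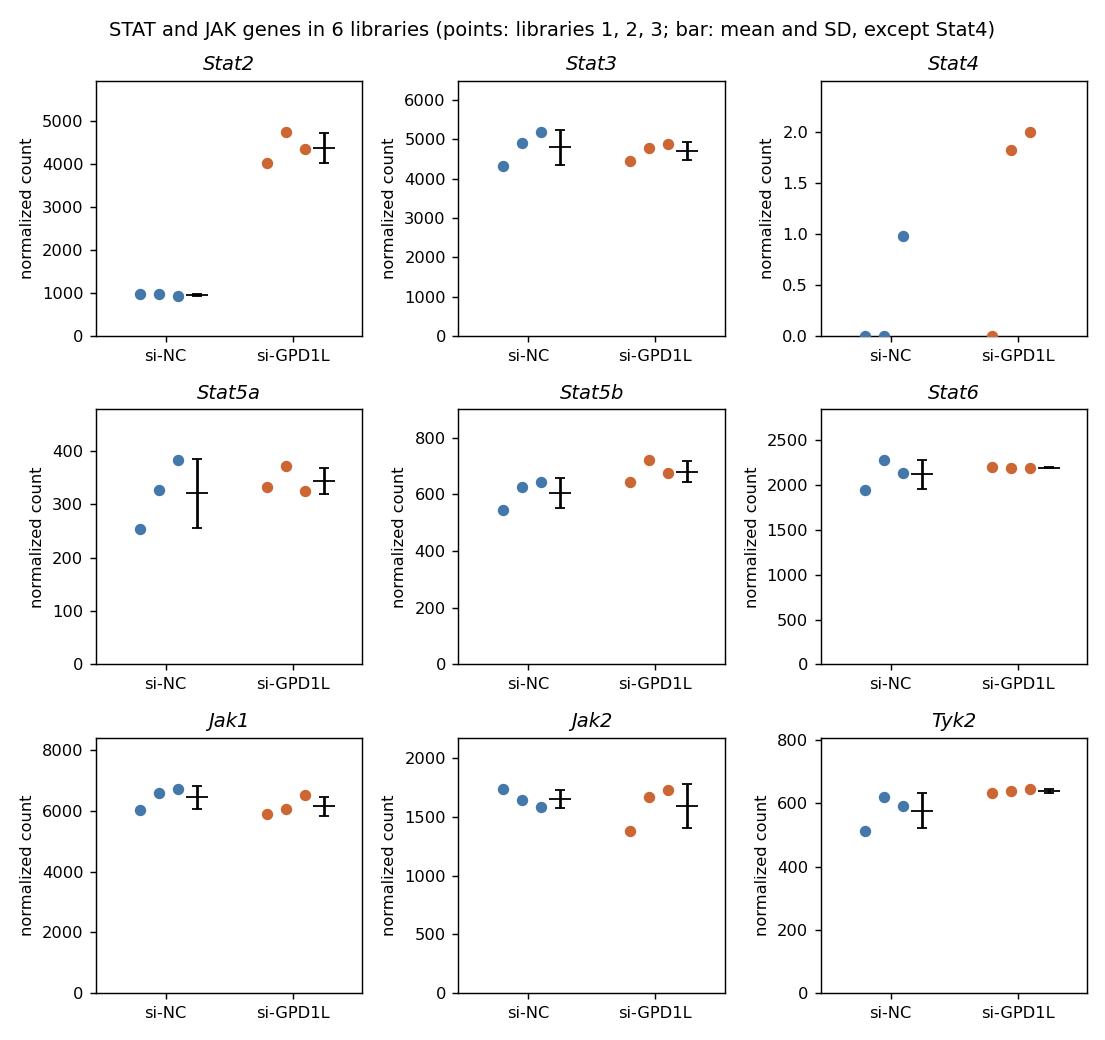
Normalized counts of the 9 genes in each library on linear axes that start at 0, with si-NC and si-GPD1L libraries as separate points and bars for the mean and SD of 3 libraries (no bar for Stat4, which had at most 2 reads). Only in the Stat2 panel are the groups far apart, at 936 to 979.8 against 4034 to 4748, while 5 of the other 7 tested genes overlap between groups.

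Stat3, the mediator of gp130 signals, was the most abundant STAT in the control cells. Its normalized counts were 4311, 4899 and 5183 in si-NC and 4442, 4779 and 4876 in si-GPD1L libraries. The si-GPD1L values fell within the control range, and the log2 fold change was −0.030 ± 0.082 with a 95% interval of −0.21 to 0.15 (edgeR adjusted p = 0.871). Stat6, the interleukin-4 STAT, had 1947, 2275 and 2135 normalized counts in si-NC and 2206, 2191 and 2192 in si-GPD1L libraries, and the log2 fold change was 0.052 (interval −0.11 to 0.21, edgeR adjusted p = 0.729). The Stat6 libraries of the si-GPD1L group lay within 1 SD of the control mean.

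Stat5a and Stat5b encode closely related proteins that respond to growth hormone and prolactin, and reads from stretches that both share may be assigned to either. Stat5b had 545, 625 and 644 normalized counts in si-NC and 645, 719.8 and 677 in si-GPD1L libraries. The groups did not overlap, by a margin of about 1 count, and the log2 fold change of 0.17 ± 0.089 (interval −0.022 to 0.37) did not pass the test (edgeR adjusted p = 0.281). Stat5a had 253, 327 and 382 normalized counts in si-NC and 333, 372 and 325 in si-GPD1L libraries, with a log2 fold change of 0.10 (interval −0.19 to 0.39, edgeR adjusted p = 0.717). The control libraries of Stat5a spanned the whole si-GPD1L range. The log2 ratio of Stat5a to Stat5b counts was −0.93 ± 0.18 in si-NC and −0.99 ± 0.059 in si-GPD1L libraries (SD, n = 3 each), a difference of −0.057 (exact two-sided permutation p = 0.7).

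Stat4, which carries interleukin-12 signals mainly in lymphocytes, had 0, 0 and 1 reads under si-NC, against 0, 2 and 2 reads after si-GPD1L. A count of 0 allows up to 3 reads, which is 0.149 to 0.178 CPM (counts scaled to library size) over the 6 libraries, counting error only. For Stat4 this limit holds in the libraries with 0 reads, at 0.163 to 0.178 CPM, and libraries with 1 or 2 reads allow more. A difference in Stat4 was not detectable at this depth.

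Jak1, the kinase shared by interferon and gp130 receptors, had 6027, 6586 and 6729 normalized counts in si-NC and 5905, 6078 and 6514 in si-GPD1L libraries. The groups overlapped, with a log2 fold change of −0.064 ± 0.076 and an interval of −0.23 to 0.10 (edgeR adjusted p = 0.669). Jak2, the kinase of growth hormone and interferon gamma receptors, had 1739.97, 1643 and 1582 against 1381, 1669 and 1732 normalized counts, a log2 fold change of −0.054 (interval −0.24 to 0.14, edgeR adjusted p = 0.770). The lowest Jak2 value belonged to si-GPD1L replicate 1, and the other si-GPD1L libraries lay inside the control range. Tyk2, the kinase bound to the type I interferon receptor chain Ifnar1, had 514, 621 and 593 normalized counts in si-NC and 632, 638 and 646 in si-GPD1L libraries. The Tyk2 groups did not overlap, but the log2 fold change of 0.15 ± 0.089 (interval −0.043 to 0.34) did not pass the test (edgeR adjusted p = 0.349).

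The 7 tested members other than Stat2 had log2 fold changes from −0.064 to 0.17, 4 above and 3 below 0, and adjusted p-values from 0.281 to 0.871. Their 95% intervals together reached from −0.24 to 0.39 on the log2 scale, or 0.844-fold to 1.31-fold, so changes up to those sizes could not be told from none. Stat2 was compared with each of these 7 within libraries, a test picked after its change was seen. The log2 ratio of Stat2 to another member was higher in the si-GPD1L group by 2.01 to 2.25, and the ratios did not overlap between groups for 7 of 7 partners (exact two-sided permutation p = 0.1 each, the smallest that 3 against 3 libraries allow, and 0.1 after adjustment over the 7). All 7 ratios share the Stat2 counts, whose change was already known, so they are not independent and add no support.

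**Figure D2:**
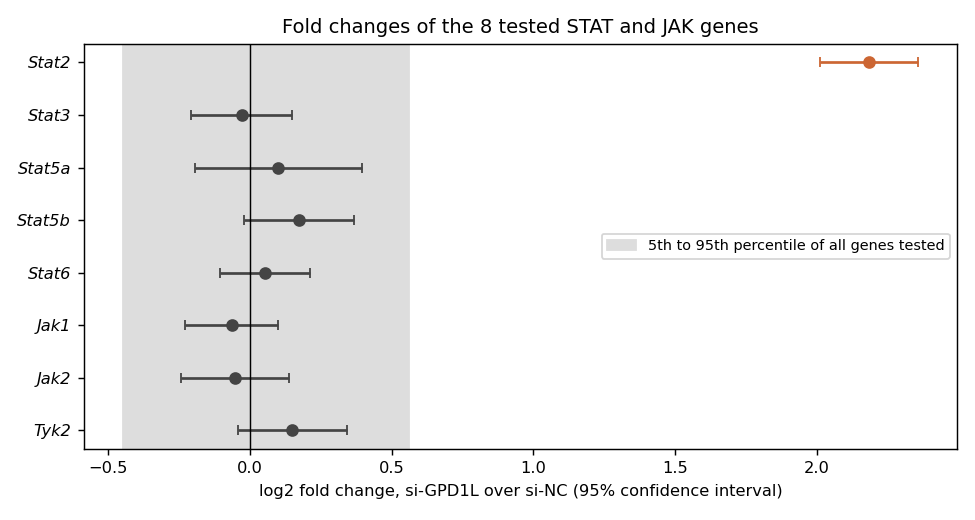
Log2 fold changes of the 8 tested genes, si-GPD1L minus si-NC, with bars for the 95% confidence interval of the edgeR fit. The Stat2 interval of 2.01 to 2.36 stands apart from the others, which lie between −0.24 and 0.39 and include 0.

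Levels were compared between genes per gene length, as TPM. In the si-NC libraries the order was Stat3 (138 ± 19.0 TPM), Stat6 (103 ± 12.2), Jak1 (93.6 ± 9.74), Jak2 (56.7 ± 0.673), Stat5b (30.2 ± 4.01), Stat2 (29.8 ± 1.22), Stat5a (11.4 ± 2.78) and Tyk2 (10.2 ± 1.42), each as mean and SD of 3 libraries, with Stat4 last. The libraries of the neighbours Stat6 and Jak1, Stat5b and Stat2, and Stat5a and Tyk2 overlapped. The gene length used was 8830 bases for Jak1, whose tested transcripts have 4291 to 8528 bases. For Tyk2 it was 7231 bases, against 4535 to 4833 bases for its transcripts. The places of Jak1 and Tyk2 in this order therefore depend on the length used, and a shorter length would raise them. In the si-GPD1L libraries Stat2, at 131 to 157 TPM, overlapped Stat3, at 134 to 148 TPM, at the head of the order. The other 7 genes followed in the same order as in the controls.

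The summed level of the 6 STAT genes was 269, 330.2 and 338 TPM under si-NC, compared with 424, 468 and 452 TPM after si-GPD1L. Without Stat2 the sums were 240.3, 299 and 308 TPM against 293, 311 and 309 TPM, which overlapped. Stat2 made up 8.87% to 10.6% of the summed STAT level in the controls, against 31.0% to 33.5% after si-GPD1L, while the share of Stat3 went from between 43.3% and 45.5% to between 31.2% and 32.8%. The kinases summed to 148, 166 and 168 TPM in si-NC and 152, 167 and 175 TPM in si-GPD1L libraries, with Jak1 at 55.9% to 60.1% and Tyk2 at 5.83% to 7.76% of the sum over all libraries. These shares are descriptions and no test was run on them. The kinase shares also depend on the gene lengths used, as given above for Jak1 and Tyk2.

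**Figure D3:**
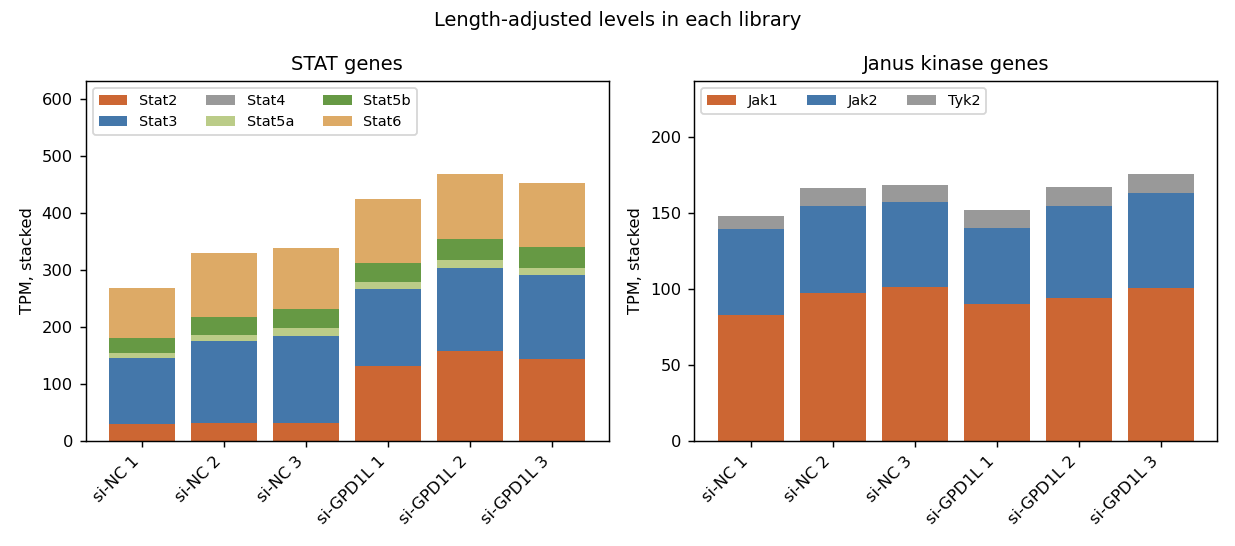
Summed TPM of the STAT genes and of the Janus kinase genes in each of the 6 libraries, stacked by gene, on axes that start at 0. The STAT sum is 269 to 338 TPM in si-NC libraries, against 424 to 468 TPM after si-GPD1L, with the added height in the Stat2 layer, and the kinase sum is 148 to 175 TPM throughout.

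At the transcript level, 3 of 3 annotated Stat2 transcripts, of 3434, 4079 and 4133 bases, were higher in the si-GPD1L libraries, with log2 fold changes of 2.16, 2.17 and 2.16 (edgeR adjusted p = 9.08e-10, 1.01e-09 and 9.14e-10), against 3.58% higher and 5.89% called in either direction among the 37822 transcripts tested. The transcripts of a gene share most reads, so they are not independent. The other 14 member transcripts tested were not called, with log2 fold changes of −0.088 to 0.15. On the rn6 assembly Stat2 covers chr7:2691064-2707530 on the plus strand, and the nearest gene, Apof, lies 125 bases away on the same strand and averaged 0.667 reads per library. Stat6 lies at chr7:70946228-70963542, 37 bases from Nab2 on the opposite strand, which averaged 2134 reads (log2 fold change −0.25, edgeR adjusted p = 0.0566), and Jak1 at chr5:119982503-120091452 overlaps Raver2 on the opposite strand, with 101 reads on average. Stat3 at chr10:88790401-88842263 and Stat5a at chr10:88764732-88789060 are 1340 bases apart on opposite strands, followed by Stat5b at chr10:88686207-88712313. The strand setting of the counting is not given in the sources used here, so reads of such neighbours could not be told apart where they overlap.

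The 3 genes whose log2 normalized counts were most like those of Stat2 over the 6 libraries, among 11038 genes that averaged 50 or more normalized counts, were Dtx3l, a ubiquitin ligase (Pearson r = 0.9998), Irgm2, an interferon-induced GTPase (r = 0.9995), and Ifih1, the cytosolic RNA sensor MDA5 (r = 0.9995). Dtx3l had 136, 135 and 126 normalized counts in si-NC and 859, 1011 and 954 in si-GPD1L libraries. The difference between the groups sets such values, since 76 of the candidates had r above 0.99.

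Known target genes of ISGF3 were higher in the si-GPD1L libraries. Of 18 listed targets 17 were in the table and tested, and 10 of them had at least 10 reads in every si-NC library. All 10 were higher, against 4.03% of all genes tested, and 0 were lower. Their median log2 fold change was 4.01, with a range of 1.43 to 6.02. The other 7 (Ifit1, Ifit3, Mx1, Mx2, Oas1a, Oas2 and Rtp4) had under 10 reads in 1 or more control libraries and passed the filter on low counts through the si-GPD1L libraries, where they are high, so their direction was set by the filter and they add no support. With these 7 included, 17 were higher, the median was 5.87 and the range reached 9.42, and the median was also 5.87 with the 2 genes that had at most 3 reads in each control library set to their lower bound. Mx2, an antiviral dynamin-like GTPase, had 4.94, 7.41 and 8.78 normalized counts in si-NC and 4691, 5536 and 4479 in si-GPD1L libraries (log2 fold change 9.42 ± 0.16 SE, edgeR adjusted p = 3.54e-12), and reads may be shared with its paralog Mx1. Oasl2, of the oligoadenylate synthetase family, went from 131 ± 12.4 to 2469.8 ± 151 normalized counts, SD over 3 libraries (log2 fold change 4.24, edgeR adjusted p = 2.77e-11). Ifit1, which binds viral RNA, went from 8.34 ± 1.81 to 669 ± 47.0 (log2 fold change 6.30, edgeR adjusted p = 9.45e-11). The summed normalized counts of all 17 ranged from 2689 to 3115 in the control libraries, against 26875 to 33371 after si-GPD1L. This sum includes the 7 genes that passed through the si-GPD1L libraries, so part of its contrast was set by the filter. The members of this list were chosen as interferon targets with earlier results of these data known, so its direction is no independent evidence.

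Of 12 partners and coactivators of STATs, 11 were tested, 2 were higher and 0 lower, and the median log2 fold change was 0.080. Among all genes tested, 4.03% were higher. Irf9, the DNA-binding subunit of ISGF3, had 439.9, 500.5 and 446 normalized counts in si-NC and 1579, 1657 and 1613 in si-GPD1L libraries, and its groups did not overlap (log2 fold change 1.81 ± 0.077 SE, edgeR adjusted p = 5.17e-09). The Stat2 to Irf9 ratio of TPM was 1.68, 1.49 and 1.59 in si-NC and 1.94, 2.17 and 2.05 in si-GPD1L libraries. Nmi, which binds STAT proteins, went from 137 ± 22.5 to 279 ± 14.6 normalized counts (log2 fold change 1.03, edgeR adjusted p = 0.000379). The other 9 tested partners, which include the acetyltransferases Ep300 and Crebbp, did not pass the test.

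Promoter sequences were set beside these values because ISGF3 acts through the ISRE. In RefSeq promoter windows on the GRCr8 assembly (250 bases before to 50 after the start), the ISRE core was searched as GAAANNGAAA on both strands, that is GAAANNGAAA or TTTCNNTTTC on the printed strand. It was present in 3.92% of 33469 promoters and in 9 of the 11 ISGF3 targets with a window (81.8%). These genes were listed as known ISGF3 targets, so a high share follows from that choice and is no independent evidence. The matches in the 8 such targets that are in the count table, 10 in all because Oas1a and Bst2 each hold 2 that overlap, are printed with 10 bases on each side, 5′ to 3′ on the strand of the gene, with the matched letters in capitals.
Oas1a, chr12:41330415-41330450, plus strand: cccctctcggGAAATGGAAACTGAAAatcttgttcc
Bst2, chr16:18255073-18255108, minus strand: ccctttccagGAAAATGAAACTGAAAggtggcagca
Isg20, chr1:142239957-142239986, plus strand: taatgaaccaGAAACTGAAActaaaacggc
Ifih1, chr3:67684008-67684037, minus strand: gaagagaatcGAAACAGAAAccgatgtgtg
Eif2ak2, chr6:21941128-21941157, plus strand: agtccgccggGAAAACGAAAcagagagaac
Irf7, chr1:205800073-205800102, minus strand: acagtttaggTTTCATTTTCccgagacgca
Ifit3, chr1:241527272-241527301, plus strand: tttaagtctgTTTCAGTTTCtagtttccac
Oasl2, chr12:47383317-47383346, minus strand: aaagctttggTTTCAGTTTCcaggcttgag

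Of the 9 STAT and kinase genes, 7 had a promoter window, and the ISRE core was in 0 of the 7. The gamma-activated site, searched as TTCNNNGAA, was in 0 of the 7 and in 8.87% of all promoters, and the form with 4 spacer bases that Stat6 can bind, TTCNNNNGAA, was in 0 of the 7 and in 7.28%. The Stat2 window, chr7:1286840-1287139 on the plus strand of GRCr8, is printed whole because Stat2 was the member that rose, with its 1 GAAA in capitals.
Stat2: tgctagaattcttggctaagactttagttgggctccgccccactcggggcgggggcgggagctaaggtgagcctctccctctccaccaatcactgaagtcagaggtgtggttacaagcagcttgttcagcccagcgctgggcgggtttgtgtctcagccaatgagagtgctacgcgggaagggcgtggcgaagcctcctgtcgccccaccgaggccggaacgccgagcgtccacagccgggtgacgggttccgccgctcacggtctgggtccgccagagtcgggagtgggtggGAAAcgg
A match is a description of letters, and the absence of a match says only that these letters are not in this window.

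Of 13 interferon and gp130 receptor genes, all tested, 1 was higher and 0 lower, with a median log2 fold change of −0.027. A count of 1 in 13 is near the 6.36% called among all genes tested and is not a result about the receptors. The type I interferon receptor chains Ifnar1 (log2 fold change 0.013, edgeR adjusted p = 0.949) and Ifnar2 (−0.011, adjusted p = 0.969) and the gp130 gene Il6st (−0.027, adjusted p = 0.901) did not pass the test. Ifngr1, the ligand-binding chain for interferon gamma, had 2135, 2229 and 2205 normalized counts in si-NC and 2766, 2796 and 2661 in si-GPD1L libraries (log2 fold change 0.32 ± 0.065 SE, edgeR adjusted p = 0.0113). Without si-GPD1L replicate 1 or replicate 2 the Ifngr1 call was lost (edgeR adjusted p = 0.0745 and 0.0987).

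Of 18 other receptors that couple to Janus kinases, 17 were in the table and 10 were tested. In this list 1 was higher and 2 were lower, against 4.03% higher and 2.33% lower among all genes tested. The median log2 fold change was −0.084. Il4r, the interleukin-4 receptor chain upstream of Stat6, had 1235, 1399.8 and 1448 normalized counts in si-NC and 2233, 1893 and 1876 in si-GPD1L libraries (log2 fold change 0.56 ± 0.089 SE, edgeR adjusted p = 0.00243). Ghr, the growth hormone receptor upstream of Stat5, fell from 1067 ± 61.8 to 817 ± 82.6 normalized counts (log2 fold change −0.38, edgeR adjusted p = 0.0219), a call lost without si-GPD1L replicate 1 (adjusted p = 0.136) or 2 (adjusted p = 0.113). Il12rb2, the interleukin-12 receptor chain upstream of Stat4, fell from 87.3 ± 15.1 to 48.95 ± 1.01 normalized counts (log2 fold change −0.83, edgeR adjusted p = 0.0233), a call lost without any 1 of si-GPD1L replicates 1, 2 and 3 (adjusted p = 0.0932, 0.0987 and 0.0709).

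Of 22 ligands, 21 were in the table and 10 were tested, 0 were higher and 1 was lower, and the median log2 fold change was 0.035. A count of 1 in 10 is near the 6.36% called among all genes tested and is not a result about the ligands. There were 7 ligands that had 0 reads in each of the 6 libraries, among them Ifnb1 and Ifng, the genes of interferon beta and interferon gamma, and the limit of 3 reads given for Stat4 holds for each of them too. Tslp, a cytokine that signals through Stat5, fell from 118 ± 18.4 to 68.2 ± 13.7 normalized counts (log2 fold change −0.78 ± 0.19 SE, edgeR adjusted p = 0.0324), a call lost without si-NC replicate 3 (adjusted p = 0.0556) or si-GPD1L replicates 1, 2 or 3 (adjusted p = 0.143, 0.0868 and 0.0638). Lif, a gp130 cytokine, had a log2 fold change of 0.42 that did not pass the test (edgeR adjusted p = 0.0780).

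Of 20 inhibitors of the pathway, all tested, 2 were higher, against 4.03% of all genes tested, and 0 were lower. Their median log2 fold change was 0.0026. Usp18, which removes ISG15 from proteins and blocks the Ifnar2 chain, had 0.989, 2.12 and 6.83 normalized counts in si-NC and 1068, 1326 and 1066 in si-GPD1L libraries. Every si-GPD1L library held over 1000 normalized counts where no control reached 7, and the fitted log2 fold change was 8.37 ± 0.24 SE (edgeR adjusted p = 1.73e-10). Usp18 passed the filter on low counts through the si-GPD1L libraries alone and was not tested where 10 reads in every library were required, so its direction was set by the filter. Without it, 1 of the 19 other inhibitors was higher, which is near the share of all genes and is not a result about the inhibitors. Socs1, which inhibits the Janus kinases directly and is named here after its values were seen because its mean is under 50 normalized counts, had 11.9, 20.1 and 14.6 against 54.5, 61.8 and 51.9 normalized counts (log2 fold change 1.85 ± 0.27 SE, edgeR adjusted p = 0.00118). Socs3 (log2 fold change −0.33, edgeR adjusted p = 0.0698) and Socs2 (−0.34, adjusted p = 0.0514), the inhibitors best known as targets of Stat3 and Stat5, did not pass the test.

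**Figure D4:**
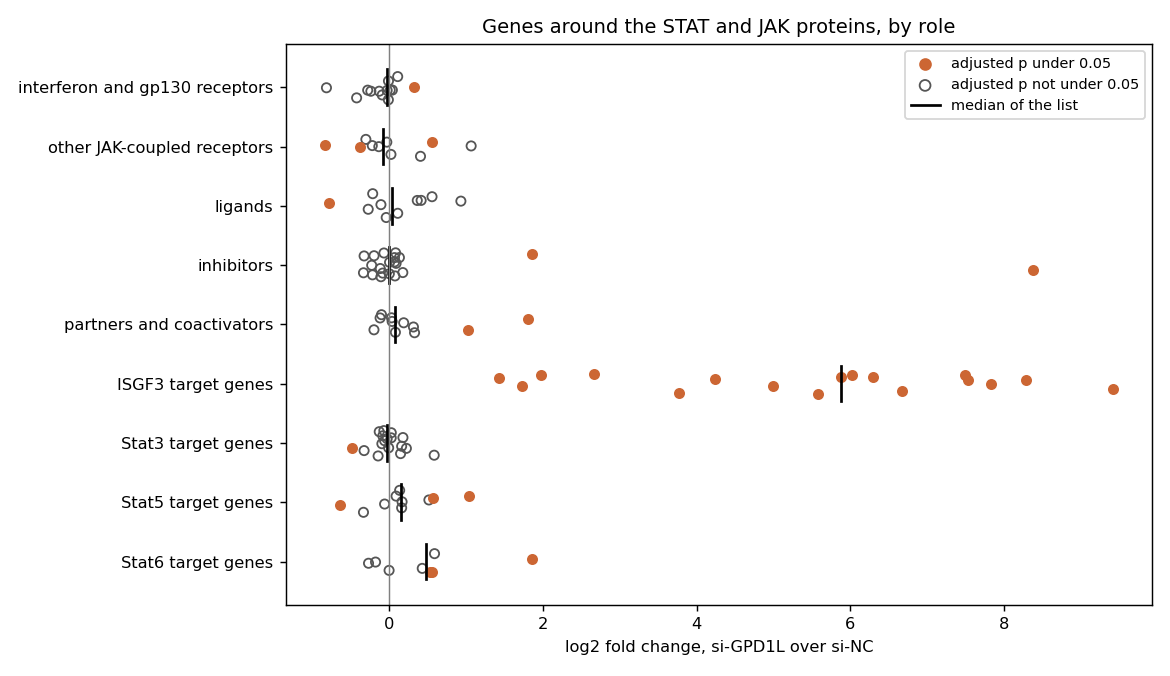
Log2 fold changes of the tested genes of each pathway list, si-GPD1L minus si-NC, 1 point per gene, with the called genes in another color and a bar for the list's median. The ISGF3 targets lie between 1.43 and 9.42 with all 17 called, 7 of them after passing the filter on low counts through the si-GPD1L libraries, while the medians of the other 8 lists lie between −0.084 and 0.48.

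The targets of the other STATs were counted in the same way. Of 17 Stat3 targets, all tested, 0 were higher and 1 was lower, with a median log2 fold change of −0.027. A count of 1 in 17 is near the 6.36% called among all genes tested and is not a result about these targets. The lower gene was Cebpb, a transcription factor of the acute phase response, at 1668, 2101 and 1875 normalized counts in si-NC and 1333, 1390.5 and 1314 in si-GPD1L libraries (log2 fold change −0.48 ± 0.085 SE, edgeR adjusted p = 0.00513).

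Of 11 Stat5 targets, 10 were tested, 2 were higher and 1 was lower, and the median log2 fold change was 0.15. Among all genes tested, 4.03% were higher and 2.33% lower. Ccnd1, the gene of cyclin D1, was higher, at 4974 ± 422 against 2425 ± 131 normalized counts (log2 fold change 1.04 ± 0.081 SE, edgeR adjusted p = 2.95e-06), as was Id1, an inhibitor of helix-loop-helix factors, at 933 ± 86.5 against 627 ± 7.74 (log2 fold change 0.57, edgeR adjusted p = 0.00122). Igf1, the growth factor through which growth hormone acts on tissues, went the other way, from 14231 ± 1883 to 9105 ± 1547 normalized counts (log2 fold change −0.64, edgeR adjusted p = 0.00841), a call lost without si-GPD1L replicate 1 (adjusted p = 0.0703) or 2 (adjusted p = 0.0786). The called genes of this list thus moved in both directions.

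Of 10 Stat6 targets, 8 were tested, 3 were higher, against 4.03% of all genes tested, and 0 were lower. Their median log2 fold change was 0.48. The 3 were Il4r and Socs1, given above, and Gata3, a transcription factor, which had 199, 199 and 214 normalized counts in si-NC and 331, 274 and 281 in si-GPD1L libraries (log2 fold change 0.53 ± 0.11 SE, edgeR adjusted p = 0.0139). The Socs1 promoter window held both an ISRE core and a gamma-activated site, and which STAT its change goes with was not tested. The Gata3 call was lost without si-NC replicate 2 (adjusted p = 0.0581) or si-GPD1L replicate 1 (adjusted p = 0.0916). The other 5 tested targets, among them Arg1 and Il13ra2, were not called, and Ccl11 and Ccl26 had too few reads to be tested.

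Markers of other cell types were measured beside these results. Of 12 lymphocyte markers, 10 had at most 3 reads in every library, 6 of them were at 0 in all (Cd3d, Cd3e, Klrd1, Ms4a1, Ncr1 and Nkg7), and the list summed to 79.1 to 99.5 normalized counts in the controls, against 64.3 to 88.8 after si-GPD1L. The 8 macrophage markers were tested with 0 called, and summed to 2652 to 2874 in the controls, against 2206 to 3273 after si-GPD1L. Endothelial markers moved with the group, with 2 of 6 tested higher, against 4.03% of all genes tested. These were Cdh5 (log2 fold change 1.07, edgeR adjusted p = 0.00337) and Pecam1 (0.90, adjusted p = 0.0249). The endothelial list summed to 543 to 662 normalized counts in the controls, against 705 to 884 after si-GPD1L. The Pecam1 call was lost without si-NC replicate 2 (adjusted p = 0.0858) or si-GPD1L replicate 2 (adjusted p = 0.152) or 3 (adjusted p = 0.0780). The part of the endothelial signal in the values of Stat2 and its targets was not tested. The cells held cardiomyocyte markers as well, at sums of 31658 to 32778 in the controls, against 27815 to 30797 after si-GPD1L. Of these 8 markers, 0 were called. The 9 fibroblast markers were all present, with 2 lower, against 2.33% of all genes tested, and 0 higher.

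The Stat2 change did not rest on 1 library or on 1 setting among those tried. Its log2 fold change was 2.12 to 2.24 when each library was left out in turn and 2.16 to 2.19 under the other 8 settings, and Stat2 was the 1 member called in each of the 14 fits.

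**Figure D5:**
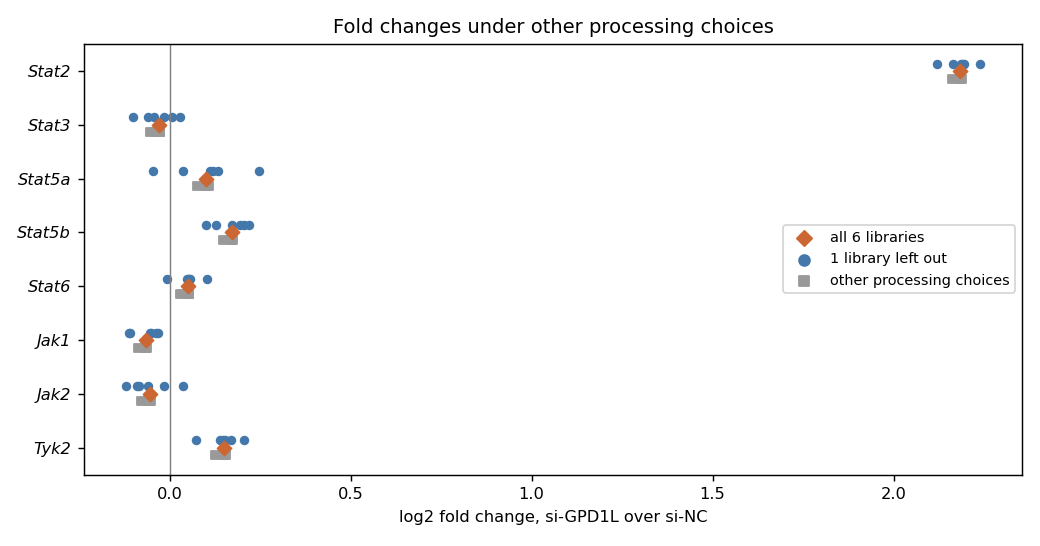
Log2 fold change of each tested gene, si-GPD1L minus si-NC, in the reported fit and in the 14 alternative fits, with leave-one-out fits marked apart. The Stat2 values stay between 2.12 and 2.24, while Stat3, Stat5a, Stat6 and Jak2 cross 0 when 1 library is left out.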

How the data were processed

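RNA sequencing of 6 samples of rat atrial fibroblasts was used, 3 per siRNA. The deposited gene counts and transcript counts are raw reads, and the deposited TPM values are reads per gene length made by the authors. The submitters' processing notes name bcl2fastq, HISAT2 2.1.0, HTSeq 0.12.4 and rn6. Columns of the authors' own comparison (fold changes, p-values) and the GO and KEGG lists were not used.

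Genes were filtered with filterByExpr, scaled by TMM and tested with the quasi-likelihood test of edgeR 4.0.16 in R 4.3.3 (Benjamini-Hochberg over 14852 genes, threshold 0.05). The script was tested on simulated data. Alternatives were other normalizations and filters, the edgeR exact test, DESeq2 1.42.0, a replicate block, transcript counts summed per gene and leaving out each library. From each pathway list at most 3 called genes that averaged 50 or more normalized counts were named, those with the smallest adjusted p, and for Stat2 the 3 genes with the highest correlation. The members and lists were chosen with earlier results of these data known. Promoters were from RefSeq (GRCr8). Depth was 16892255 to 20149732 counts per library, and the 3-read limit for a count of 0 covers counting error only, while intervals of fold changes come from the edgeR fit and include the spread between libraries.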

Additional observations from a re-analysis of the deposited data

How the results depend on the processing

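Stat2 kept its direction and its call in all 14 alternatives, with adjusted p from 1.16e-132 to 1.24e-07, and the member count stayed at 1 and the Stat2 transcripts at 3. Of all genes, 945 were called, against 1528 by the exact test, 1929 without a filter, 1531 without si-NC replicate 1, 1451 without si-NC replicate 3, 623 with transcript counts summed, and 550, 366, 361 and 591 without si-NC replicate 2 and si-GPD1L replicates 1, 2 and 3. The cause was not tested. The replicate numbers did not pair the libraries (correlations of deviations −0.014, −0.0060 and 0.043). With the replicate block 921 genes were called, Stat2 had 2.18 (edgeR adjusted p = 6.39e-09), and 2 ligands were called, Lif (adjusted p = 0.0477) being added to Tslp. The exact test and no filter each gave 2 ligands, 4 inhibitors and 2 Stat3 targets. The minimum of 10 counts in every library, which tests fewer genes, gave 1 inhibitor and 10 ISGF3 targets. With 1 library left out the counts of called genes ranged from 0 to 2 for interferon and gp130 receptors, 1 to 3 for other receptors and 0 to 2 for ligands. They ranged from 2 to 5 for inhibitors, 1 to 3 for Stat3 targets, 2 to 4 for Stat5 and for Stat6 targets and 2 to 3 for partners. For ISGF3 targets the count stayed at 17. Of these, 7 passed the filter on low counts through the si-GPD1L libraries, as Usp18 did among the inhibitors, so their steady calls add no support. Log2 fold changes near 0 changed sign for Stat3 (−0.10 to 0.028, the value being 0.028 without si-NC replicate 3, and 0.0067 when si-GPD1L replicate 1 was left out), Stat5a (−0.046 to 0.25, lowest without si-NC replicate 1), Stat6 (−0.0064 to 0.10, lowest without si-NC replicate 1), Jak2 (−0.12 to 0.037, highest without si-GPD1L replicate 1) and the Stat5a to Stat5b ratio (−0.14 to 0.032, highest without si-NC replicate 3). Gpd1l ranged from −0.50 to −0.21, with adjusted p from 0.0604 to 0.579. With 3 libraries per group, members with intervals across 0 are limited by the spread between libraries, and Stat4 by depth.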

Other observations

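Among markers not described above, 2 fibroblast matrix genes, the proteoglycans Dcn (log2 fold change −0.66, edgeR adjusted p = 0.0129) and Lum (−0.77, adjusted p = 0.00580), were lower in si-GPD1L libraries, and the Dcn call was lost without si-GPD1L replicate 1 (adjusted p = 0.0564) or 2 (adjusted p = 0.0842). Of 7 smooth muscle and pericyte markers, 1 was higher (Cspg4, log2 fold change 0.80) and 1 lower (Des, −0.35, a call lost without si-NC replicate 2, adjusted p = 0.0750, or si-GPD1L replicates 1 and 2, adjusted p = 0.0984 and 0.167). Among all genes tested, 4.03% were higher and 2.33% lower.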
